A study of Homo sapiens with 2 samples.

Results

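The HOX genes of the 4 human clusters were compared between 2 stably transfected cultures of OECM1, a cell line from a head and neck cancer. Both were grown in RPMI medium with fetal bovine serum. OECM1-mCherry carried the empty mCherry vector, and OECM1-let7i carried a vector for the microRNA let-7i with the same fluorescent reporter. Each was profiled on 1 microarray, so no difference had a replicate check and no p-value or SD between cultures could be given. The labels do not say whether a culture was a clone or a pool. The arrays ask what added let-7i does to the transcripts of these cells. HOX genes were taken as all probe sets with a single platform symbol that reads HOXA, HOXB, HOXC or HOXD followed by a number. This gave 44 probe sets for 28 genes, out of 41097 probe sets for 19775 genes in all. Of the 39 HOX genes in the RefSeq gene table, 10 HOXA genes and HOXD3 had no such probe set and are not analysed here.

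HOX genes encode homeodomain transcription factors that give cells their position along the body axis. They lie in clusters in which gene order follows the order of expression, with low numbers at the 3' end, used early and towards the head, and high numbers at the 5' end, used late and towards the tail. Genes with the same number in different clusters are paralogues, and numbers 9 to 13 form the posterior, AbdB-like group. HOX proteins bind DNA with TALE homeodomain partners of the PBX and MEIS families, and trithorax and Polycomb proteins keep the clusters active or silent. HOX transcripts are often found in squamous carcinomas, while the neural crest that forms the jaws is known for lacking them.

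The agent of the experiment and 3 of the microRNAs encoded inside the HOX clusters are shown, because the seed of the miR-196 kind is also found in let-7i. miR-10a, whose seed is not, is set beside them. Mature sequences are from RefSeq (GRCh38.p14), read 5' to 3', with the seed, bases 2 to 8, in capitals. None of these microRNAs is measured by this kind of array, so their levels are not part of the data.
let-7i-5p: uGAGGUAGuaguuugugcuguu
miR-196a-5p: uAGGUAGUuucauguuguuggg
miR-196b-5p: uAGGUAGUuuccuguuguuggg
miR-10a-5p: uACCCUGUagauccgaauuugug
The seed of both miR-196 forms, AGGUAGU, also stands in let-7i from its base 3, shifted by a base against the let-7i seed GAGGUAG. miR-10a has another seed, ACCCUGU, and its longest run shared with let-7i is 6 bases outside the seed (UUUGUG). let-7i maps to chr12:62603691-62603712 on the plus strand. miR-196a is encoded at chr12:53991762-53991783 (plus) and chr17:48632532-48632553 (minus), miR-196b at chr7:27169528-27169549 (minus) and miR-10a at chr17:48579904-48579926 (minus).

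Values are MAS5 signals on a linear scale, where MAS5 sums up the probes of a probe set into 1 number that is noisy when dim. The median signal over all probe sets, 88.0 on the OECM1-mCherry array and 79.5 on the OECM1-let7i array, served as the floor above which a gene was taken as expressed. The brightest of 27 control probe sets for Bacillus subtilis genes had signals of 65.1 and 47.7. A gene was read from its brightest probe set, the one with the highest mean log2 signal over the arrays. The signal of a probe set depends on its probes, so signals rank no gene against another. Epithelial identity was partly visible in a list of markers. SFN, EPCAM and CDH1, which encode an epithelial 14-3-3 protein, an epithelial adhesion molecule and E-cadherin, were above the floor on both arrays, EPCAM 1.64-fold and CDH1 1.34-fold lower with let-7i. The basal keratins KRT5 (11.9 and 7.88) and KRT14 (29.3 and 9.85) were below it on both. Of markers of other cell types, 2 of 6 for fibroblasts (COL1A1, 346 and 415, and DCN, 163 and 322), 1 of 3 for leukocytes (CD3E, 173 and 90.4) and 1 of 4 for endothelium (PECAM1, 319 and 372) were above it. The other members of these lists, among them PTPRC (55.8 and 58.3), CDH5 (46.3 and 54.5) and VWF (18.2 and 15.2), were below the floor on both arrays. DCN was 1.97-fold higher and CD3E 1.91-fold lower with let-7i. DCN had 1 of its 7 probe sets above the floor on both arrays, COL1A1 2 of 5 and PECAM1 3 of 5, the last with log2 ratios from -0.28 to 0.22. What part these had in the HOX values was not tested. In RNA from a whole culture, fewer cells with a transcript and less transcript per cell cannot be told apart.

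The same 14 of 28 HOX genes were at or above the floor on both arrays, and the other 14 were below it on both. The share, 50%, compares with 59.1% of all genes on the OECM1-mCherry array and 59.3% on the OECM1-let7i array. HOXC was expressed along nearly its whole length, with 8 of its 9 genes above the floor. HOXB had 5 of 10, and none of the 8 HOXD genes read here was above the floor on either array. The 1 HOXA gene read, HOXA2, was just above it. By position, 3 of 8 genes with numbers 1 to 4 were above the floor, 6 of 8 with numbers 5 to 8 and 5 of 12 with numbers 9 to 13. At the level of probe sets, 20 of 44 were above the floor on both arrays and 24 on neither. The counts follow the floor, with totals of 22 and 23 genes above it (OECM1-mCherry and OECM1-let7i) when it is set at the 25th percentile of the array and 9 and 8 at the 65th. The contrast between clusters follows it too. Counting genes above it on at least 1 array, the 25th percentile gave 9 of 10 HOXB, 9 of 9 HOXC and 5 of 8 HOXD genes, and the 65th gave 4, 5 and 0, without HOXC4, HOXC5 and HOXC8.

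**Figure D1:**
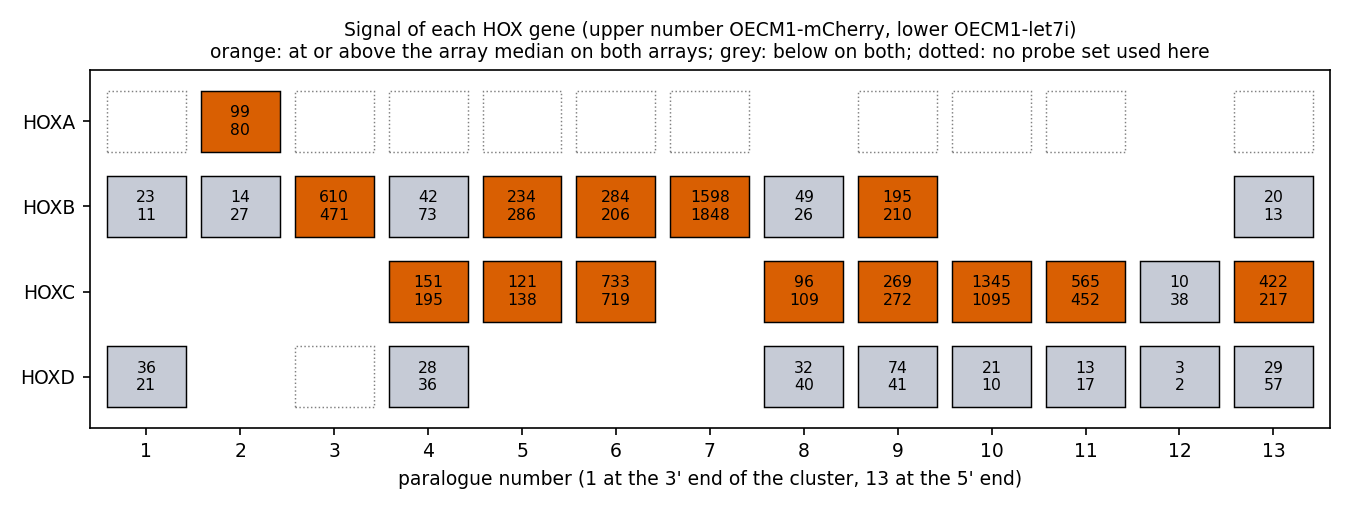
Map of the 4 HOX clusters by paralogue number (columns) and cluster (rows), with the signal of each gene's brightest probe set on the OECM1-mCherry array (upper number) and the OECM1-let7i array (lower number). Orange boxes, at or above the median of both arrays, fill HOXC apart from HOXC12 and part of HOXB, while every HOXD box is grey (below both medians) or dotted (no probe set used here).

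No HOX gene differed by 2-fold or more between the arrays. Ratios are let-7i over empty vector, given as log2 values in brackets and centred on the median of all genes measured on both arrays. Of the 14 expressed HOX genes, 0 were higher and 0 lower by 2-fold, where 1.06% and 1.38% of 12284 genes with at least 1 signal above the floor were. The HOX genes split evenly, 7 higher and 7 lower. Their median of -0.01 was the same as over all genes (-0.01), and was -0.31 over the 9 genes left when the floor is set at the 65th percentile. The typical size of a difference, as the median absolute log2 ratio, was 0.29 for HOX genes and 0.19 for all genes. Most of these HOX genes are dim, and dim probe sets are noisier. The SD of 1 probe set, explained below, was 0.34 at the dimmest signals and 0.25 over all. The value for all genes also includes 1144 genes above the floor on 1 array only, whose ratios are bounds. What part these had in the gap was not tested. At 1.5-fold, 0 HOX genes were higher and 1 was lower, against 4.18% and 5.93% of all genes.

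HOXC genes formed the longest run of expressed genes. HOXC4, which acts in the neck and upper trunk, gave 151.2 on the OECM1-mCherry array and 195 on the OECM1-let7i array, the order kept for all pairs of signals here. It was 1.29-fold higher with let-7i (0.36), the highest ratio of any HOX gene. HOXC5, its neighbour, had 121 and 138 (0.19). HOXC6, a thoracic gene also known from carcinomas, had 733 and 719 and was nearly equal on both arrays (-0.03). The middle of the cluster was therefore expressed in both cultures with differences below 1.5-fold. HOXC8, another thoracic gene, had 95.7 and 109 (0.18), close above the floor. HOXC9, the first of the posterior group, had 269 and 272 (0.01).

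Further towards the 5' end, HOXC10, HOXC11 and HOXC13 were lower with let-7i. HOXC10, a lumbar and hindlimb gene, gave 1345 and 1095 and was 1.23-fold lower (-0.30). HOXC11 had 565 and 452 and was 1.25-fold lower (-0.33). HOXC12 broke the run, with 10.2 and 37.9 both below the floor. HOXC13, a regulator of hair and nail keratins, gave 422 on the control array and 217 on the let-7i array. It was 1.95-fold lower (-0.96), just short of 2-fold, and the 1 HOX gene past 1.5-fold. To judge the size, the spread of 1 probe set was taken from pairs of probe sets for the same gene, and its SD in log2 was 0.34 at such signals. The HOXC13 difference was 2.85 times that SD, which covers probe noise and no variation between cultures. No other HOX gene had a ratio beyond 1.5 times the SD at its signal. Each HOXC gene was read by 1 probe set. That of HOXC13 is of a kind that can match several transcripts, and no second one checks it.

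Along HOXC the ratios were lower at higher paralogue numbers, though not step by step, since HOXC8 lay above HOXC6. Over the 8 genes the Pearson r between log2 ratio and number was -0.89 and Spearman's rho -0.93, and without HOXC13 they were -0.85 and -0.89 over 7 genes. After quantile normalization r was -0.88 and rho -0.86. This order was noticed in the data, so the coefficients describe it and do not test it. All these genes share 1 pair of arrays, and each ratio carries the noise of its own probe set. The ratio also went with brightness in these 8 genes (r of -0.46 and rho of -0.69 against the mean log2 signal), and what part that had was not tested. The RefSeq models of HOXC4, HOXC5 and HOXC6 overlap, so their probe sets may not read the genes apart.

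**Figure D2:**
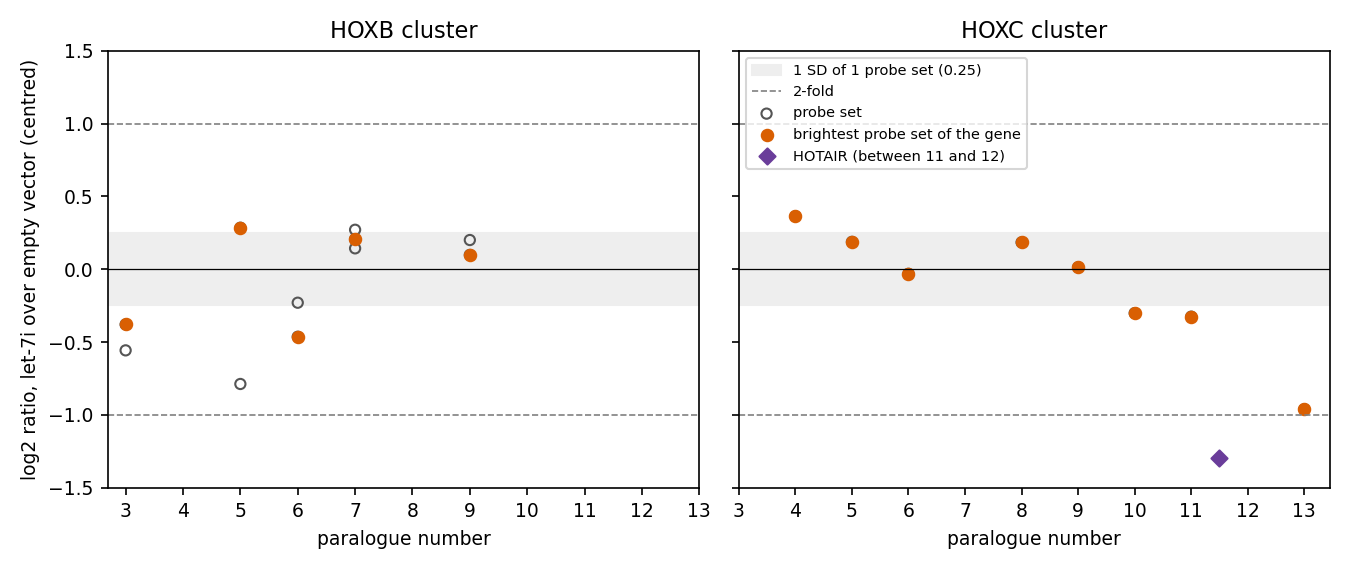
Log2 ratio of let-7i over empty vector (vertical axis) against paralogue number (horizontal axis) for HOXB and HOXC, with filled points for the brightest probe set of a gene, open circles for its other measured probe sets, a band of 1 SD of a probe set over all signals (0.25) and dashed lines at 2-fold. HOXC falls from 0.36 at number 4 to -0.96 at number 13, with HOTAIR at -1.30, while the HOXB points show no order and those of HOXB5 lie apart.

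HOXB expression was broken into stretches. HOXB1, a hindbrain gene, had 23.4 and 11.2, and HOXB2, active in the hindbrain as well, had 14.4 and 26.7, all below the floor. HOXB3 was above it at 610.2 and 470.5, a 1.30-fold lower level with let-7i (-0.38), and its other probe set, at 129 and 87.7, gave -0.56. HOXB4, known from blood stem cells, was below the floor at 41.9 and 72.6. HOXB3 thus stood alone at the 3' end of the cluster, although its RefSeq model overlaps that of HOXB4.

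HOXB5, HOXB6 and HOXB7 followed as a block above the floor. HOXB5, a gene of lung and gut development, has no settled direction, since the probe set used had 234 and 286 (0.29) while the other had 304 and 177 (-0.79), and the mean of its probe sets gave -0.23. HOXB6 had 284 and 206 and was 1.38-fold lower (-0.46), with -0.23 in its other probe set. HOXB7, often raised in carcinomas, had 1598 and 1848 and was 1.15-fold higher (0.21). Its 3 probe sets gave 0.14, 0.21 and 0.27, so HOXB7 had more probe sets behind its small difference than any other expressed HOX gene. All 3 are of a kind that can match several transcripts. HOXB8 was below the floor at 48.6 and 25.6. HOXB9, at 195 and 209.7, was 1.07-fold higher (0.10), with 0.20 in its other probe set. HOXB13, a prostate gene that lies apart from the rest of the cluster, was below the floor at 20.4 and 12.7.

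HOXB ratios had no order by number, with an r of 0.44 and a rho of 0.10 over 5 genes. Among HOX genes with more than 1 measured probe set, 4 of 5 had all of them on one side, against 64.2% of 5807 genes for their 2 brightest. HOXA2, the HOX gene that patterns the second branchial arch, had 98.7 and 80.3, a 1.23-fold lower level (-0.30). With HOXC8, it was the gene closest above the floor.

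HOXD was dim throughout. HOXD1, of the hindbrain, had signals of 35.6 and 20.7, HOXD4 27.5 and 35.6, and HOXD8 32.4 and 40.04. HOXD9, HOXD10 and HOXD11 belong to the set that patterns the limb, and had 74.3 and 40.9, 21.3 and 9.87, and 13.4 and 16.7. HOXD12 had 2.89 and 2.28. HOXD13, the gene of the digits, had 29.0 and 57.2. All these signals are below the floor, so no ratio is given. Of the genes below the floor, HOXD9 with the empty vector and HOXB4 and HOXD13 with let-7i were brighter than every Bacillus control on the same array. The 3 probe sets that name HOXD3 and HOXD4 together, left out by the rule, had signals from 6.35 to 21.4 with the empty vector and from 3.34 to 6.44 with let-7i.

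**Figure D3:**
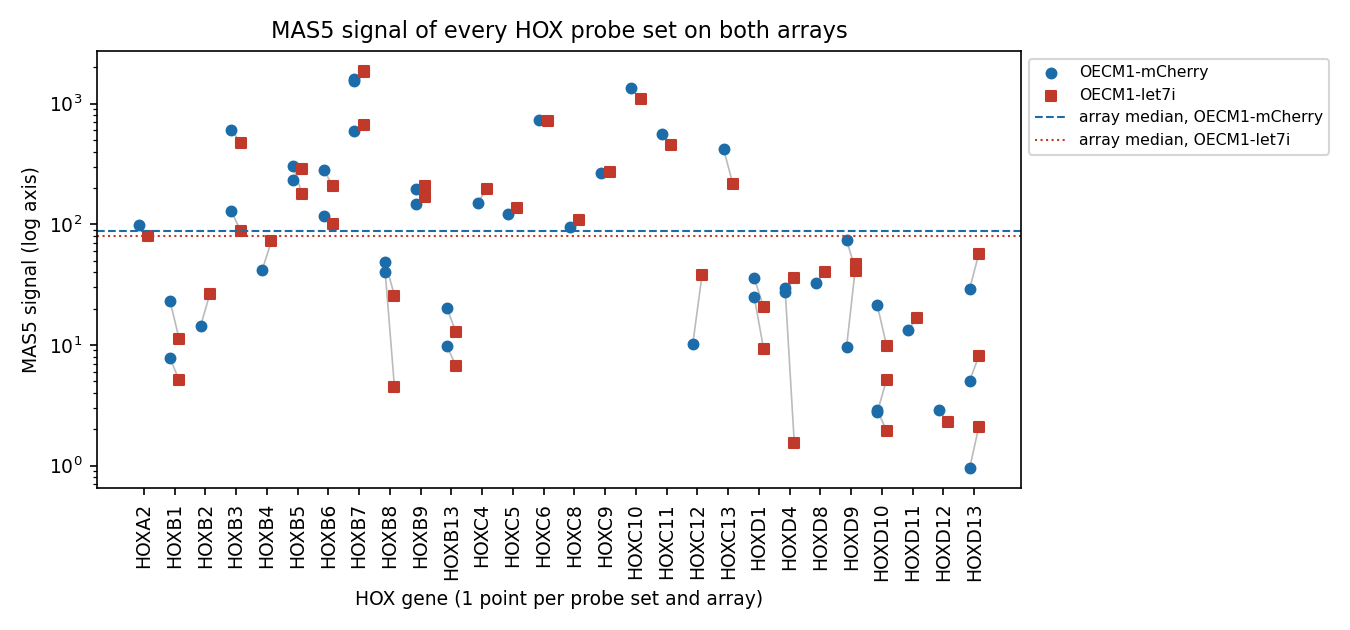
MAS5 signal (log axis) of all 44 HOX probe sets, ordered by cluster and number, with circles for OECM1-mCherry, squares for OECM1-let7i, grey lines joining the same probe set and horizontal lines at the median of each array (88.0 and 79.5). The probe sets of a gene lie on the same side of the lines, and the widest gaps between arrays are among the dimmest probe sets.

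Promoter windows from RefSeq (GRCh38.p14, 250 bases before to 50 after the gene start) were at hand for 11 of the 28 genes. The window of HOXC4 and HOXC5 is one and the same, and both genes were above the floor on both arrays. HOXD10, below the floor on both, is set beside it. The 250 bases before each start are shown 5' to 3', with every CG in capitals.
HOXC4 and HOXC5, chr12:54016638-54016887, plus strand: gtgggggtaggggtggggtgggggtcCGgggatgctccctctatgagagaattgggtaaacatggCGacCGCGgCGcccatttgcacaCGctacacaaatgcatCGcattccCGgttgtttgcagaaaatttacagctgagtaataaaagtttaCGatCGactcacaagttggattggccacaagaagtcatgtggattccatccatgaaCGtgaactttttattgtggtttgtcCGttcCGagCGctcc
HOXD10, chr2:176116528-176116777, plus strand: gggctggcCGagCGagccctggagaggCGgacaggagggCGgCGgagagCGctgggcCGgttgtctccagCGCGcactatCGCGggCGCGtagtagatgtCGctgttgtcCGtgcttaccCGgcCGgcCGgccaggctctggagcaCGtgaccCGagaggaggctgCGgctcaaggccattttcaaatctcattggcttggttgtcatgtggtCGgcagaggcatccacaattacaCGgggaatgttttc
These stretches hold 14 CG for HOXC4 and HOXC5 and 23 for HOXD10. Over whole windows of 300 bases, the 11 genes had between 4 (HOXD4) and 36 (HOXD1) CG, against a median of 14 over 35116 windows. CCAAT, searched on both strands, was in 8 of the 10 distinct HOX windows, against 34.6% of all windows. TGATTNAT, a letter pattern known for joint HOX and PBX binding, was in 2 (HOXA2 and HOXD11), against 2.82% of all. TATAAA was in 1 (HOXD13), against 11.5%, and TAATTA, a homeodomain core, in 1 (HOXD11), against 4.84%. TGATTNAT and TAATTA can overlap each other. These are letter matches only, and the windows come from the reference and not from these cells.

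Transcripts of the HOX loci that encode no HOX protein were mostly dim. Of 18 on the list, 13 had a probe set and 5 were above the floor on at least 1 array, where 12284 of all 19775 genes were. HOTAIR, a long noncoding RNA that lies between HOXC12 and HOXC11 and is known for its link to Polycomb proteins, had signals of 272 and 111. It was 2.46-fold lower with let-7i (-1.30), the 1 of these 5 called past 2-fold with the floor used here. Of all genes with at least 1 signal above the floor, 1.38% were 2-fold lower. HOTAIR was read by 1 probe set, at signals where the SD of 1 probe set was 0.34. With a floor at the 65th percentile its ratio was a bound of -0.36, because its let-7i signal is below that floor. HOXC-AS3, next to HOXC10, had 110.4 and 44.2 and was at least 1.39-fold lower. Its log2 ratio was -1.31 when the floor was the 25th percentile and -1.20 when it was the highest Bacillus control, both past 2-fold. HOTAIR and HOXC-AS3 overlap the models of HOXC11 and HOXC10, and the strand read by their probe sets was not checked. HOXA-AS2 (105 and 67.3) was at least 1.33-fold lower, and HOXA11-AS (141.5 and 139.7) had a ratio of -0.02. HAGLR and HOXD-AS2 of the HOXD locus were below the floor on both arrays, as were the HOXD genes themselves.

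Of the 8 nearest protein-coding genes outside the clusters, 7 had a probe set and 5 a ratio, 1 higher and 4 lower with let-7i. All genes with a ratio split into 5984 higher and 6122 lower, the rest having no direction. The 4 flanking genes measured on both arrays differed by less than 2-fold, and the other (SKAP1) has a bound. SKAP2, an adaptor protein gene beside HOXA, was 1.60-fold lower (3424 and 2151), while its 5 measured probe sets spread between -0.67 and 0.26 with a mean of -0.27. SKAP1, beside HOXB, was at least 1.25-fold lower (99.0 and 25.8). CALCOCO1 and SMUG1, on either side of HOXC, had ratios of -0.26 and 0.12, and SMUG1, a DNA repair glycosylase, had another probe set at -0.44.

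TALE cofactors were largely present and little different. Of 8 with a probe set, 7 were above the floor on both arrays. Of these, 5 were higher and 2 lower, none past 2-fold, and the median was 0.05. Over all genes, 11140 of 19775 were above the floor on both arrays. Of all genes with a ratio, 5984 were higher and 6122 lower. PBX2 was 1.60-fold lower by the probe set used (490.2 and 307). Its 4 probe sets disagreed, from -0.68 to 0.54, and without probe sets that can match several transcripts the ratio was 0.56. MEIS1, a HOX partner known from leukaemia, was 1.33-fold lower (311 and 234), with both its probe sets lower (-0.41 and -0.21). PKNOX1, a TALE protein that pairs with PBX, was 1.22-fold higher, with 5 probe sets from -0.12 to 0.56. PBX4, a member of the PBX family, was 1.11-fold higher.

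Genes that regulate the HOX clusters differed by less than 1.5-fold in the probe sets used. Of 18 with a probe set, 15 were above the floor on both arrays, with 5 higher and 10 lower, none past 2-fold and a median of -0.06. Among all genes, 11140 of 19775 were above it on both arrays, and those with a ratio split into 5984 higher and 6122 lower. The histone demethylases that remove the Polycomb mark went apart, KDM6B 1.31-fold higher (455 and 596) and KDM6A 1.27-fold lower (689.8 and 544), and the probe sets ranged from -0.32 to 0.64 for KDM6B and from -1.32 to -0.35 for KDM6A. WDR5, a subunit of the trithorax methylase complexes, was 1.27-fold higher and PSIP1, a chromatin tether of those complexes, 1.26-fold lower, with another PSIP1 probe set at 0.45. The caudal genes CDX1, CDX2 and CDX4, activators of HOX genes in the embryo and named after their values were seen, were the 3 below the floor.

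Homeobox genes of the head and mouth outside the clusters were set beside the HOX genes. Of 19 with a probe set, 13 were above the floor on at least 1 array, 9 higher and 2 lower with let-7i, and for 2 the bound gives no direction. Over all genes, 12284 of 19775 were above it on at least 1 array, with 5984 higher and 6122 lower. Most of the higher ratios in the list are smaller than the SD of 1 dim probe set (0.34). MSX1, a regulator of tooth and palate growth, had signals of 511 and 1052. It was 2.05-fold higher (1.04), with 0.77 in its other probe set, and was the 1 gene of the 8 measured on both arrays that passed 2-fold. Among all genes with at least 1 signal above the floor, 1.06% were 2-fold higher. The ratio is a bound for the 5 genes measured on 1 array only, among them BARX2 (92.9 and 25.6), at least 1.17-fold lower and named after its values were seen. The MSX1 ratio was 0.79 without probe sets that can match several transcripts and 0.93 as the mean of its probe sets. DLX3, a gene of epidermis and teeth, was 1.72-fold lower (300.2 and 175), a value that was -0.50 with a floor at the 65th percentile. OTX1 was 1.28-fold higher (110.4 and 142), and DLX2 (63.8 and 105.7), dim in the control, at least 1.20-fold higher. The median of the list was 0.11.

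**Figure D4:**
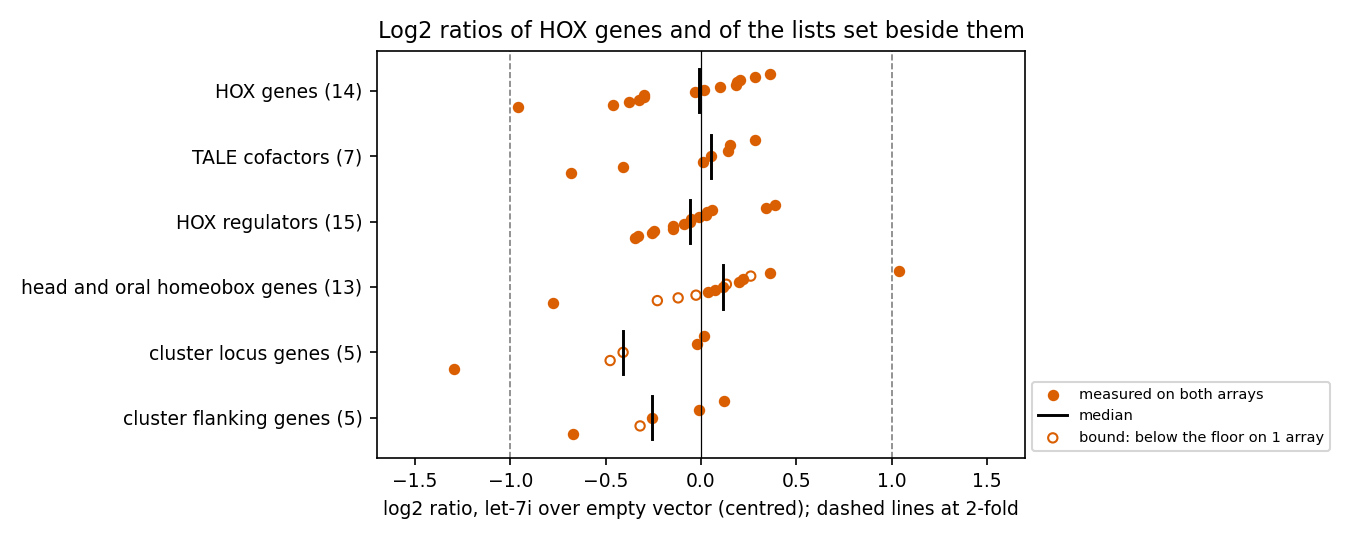
Log2 ratios of let-7i over empty vector (horizontal axis) for the 14 expressed HOX genes and for each list set beside them (rows, with the number of genes that have a ratio), with filled points for genes measured on both arrays, open points for bounds, black bars for medians and dashed lines at 2-fold. Of the filled points, HOTAIR on the left (-1.30) and MSX1 on the right (1.04) lie past 2-fold, while the genes at open points may differ by more than shown.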

How the data were processed

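Total RNA of 1 OECM1-mCherry and 1 OECM1-let7i culture was labelled with biotin, per the labels' protocols. The authors deposited 1 signal intensity per probe set, and the submitters' processing notes name MAS5. Its version is not given in the sources used here. Both arrays have a mean of 500.1 with the outer 2% at each end left out. No detection calls were used. Of 54675 probe sets, 41097 had 1 symbol. All 28 HOX symbols matched RefSeq (GRCh38.p14) by Entrez ID. A gene with several probe sets took the one whose log2 signals had the highest mean. Signals below the floor, the 50th percentile of the array, were set to it, which makes a ratio a bound, and no ratio was made where both arrays were below. Ratios were centred by 0.0036. Genes were called at 2-fold, with no test. The number of arrays limits the precision. Calls were tested on simulated data with 200 changed genes, all changed by well over 2-fold and none among the dimmest genes. The same noise was used at every signal. That test cannot speak to changes near 2-fold or to dim genes. Every HOX gene is reported, with up to 4 members by absolute ratio of each list set beside them. BARX2, the CDX genes, HAGLR and HOXD-AS2 were named beyond that limit. Members and lists were chosen with earlier results of these data known. Alternatives were other centring (none, lowess with fraction 0.3 and 3 iterations, quantile normalization), floors (25th and 65th percentile, highest Bacillus control), probe set rules and thresholds (1.5-fold and 3-fold). Scripts ran in Python 3.11.15 with pandas 2.3.3, NumPy 2.4.6, Matplotlib 3.10.9 and statsmodels 0.14.6.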

Additional observations from a re-analysis of the deposited data

How the results depend on the processing

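No paired analysis was possible because each group has 1 array. The count of expressed HOX genes followed the floor. With the floor at the 25th percentile 22 (OECM1-mCherry) and 23 (OECM1-let7i) were above it, and with the 65th percentile 9 and 8. The median HOX ratio was -0.309 with the floor at the 65th percentile, where 9 genes had a ratio. No HOX gene passed 2-fold in either direction under any alternative centring, floor or probe set rule, and a threshold of 1.5-fold gave 1 lower gene. Of 103 HOX gene ratios under alternatives, 101 moved by less than the SD of 1 probe set taken over every signal level (0.25). HOXB5 moved to -0.229 with the mean of its probe sets and HOXB6 to -0.215 without shared probe sets, the latter by less than the SD at its own signal (0.34). HOXC13 stayed between -0.969 and -0.90. It has 1 probe set above every floor tried, so other floors and the mean of probe sets moved it through the centring alone. The same holds for the other genes with 1 probe set above the floors, so small moves under these alternatives were largely fixed in advance. Without shared probe sets HOXC13, HOXC6, HOXB5 and HOXB7 had none left, and 10 genes had a ratio. Over all genes, 130 were higher and 169 lower at 2-fold. The counts were 654 and 1113 with the floor at the 25th percentile, 62 and 71 at the 65th, 514 and 728 at 1.5-fold and 34 and 24 at 3-fold, and 328 were lower with the Bacillus floor. Lowess centring gave 154 higher and 145 lower. Ratios of HOTAIR, HOXC-AS3, MSX1, DLX3, PBX2 and SKAP2 under the alternatives were added after seeing the data. Dim signals limit what can be said of the 14 genes below the floor.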
